A study of Mus musculus with 54 samples.

Results

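Gene expression in the suprachiasmatic nucleus (SCN) was compared between ZT2, early in the light phase, and ZT6, the middle of the day, where ZT (zeitgeber time) counts hours from lights on. The comparison used 3 libraries at ZT2 and 3 at ZT6, chosen by their labelled timepoint, out of 18 libraries over 6 timepoints spaced 4 hr apart around the day. Each library came from RNA pooled from the SCN of 5 mice. All groups were wild-type C3H/HeH males of 10 to 12 weeks under 12 hr of light at 150 lux and 12 hr of dark, group housed and then singly housed for 7 days each. No genotype or drug differed between the timepoints. The SCN was cut from Nissl-stained sections by laser-capture microdissection, and about 1 ng of its RNA was amplified, so each library is a mixture of all cells within the cut outline. Of 30031 genes in the count table, 21690 had a read at ZT2 or ZT6 and 18941 were tested. A library is a pool of animals, so the SD and the p-values measure the spread between pools.

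The SCN is the master circadian pacemaker of mammals. In its clock, CLOCK and BMAL1 (encoded by *Arntl*) bind E-box sequences and activate the *Per* and *Cry* genes, whose products return to the nucleus and repress that activation. REV-ERB and ROR nuclear receptors act on *Arntl*, and DBP, TEF and HLF act through D-box sequences. SCN neurons are almost all GABAergic, fire mainly by day, and communicate through neuropeptides such as AVP, VIP and GRP. Light reaches them through glutamate and PACAP from the retina, which act on CREB and on the *Per* genes.

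Between 17740695 and 25527093 reads were counted on genes per ZT2 library, and between 19456681 and 24623369 per ZT6 library. Pairs of libraries of the same timepoint correlated across genes with Pearson's r between 0.905 and 0.964, and their counts differed by more than sampling alone would give. On the first principal component, which held 41% of the variance of the 500 most variable genes, the ZT2 libraries lay with those of ZT22 and the ZT6 libraries with those of ZT10. In the study's own plot of this kind the libraries were separated by timepoint and by sequencing batch. From the timing of clock gene peaks and troughs, the paper took any batch effects to be minimal. It also reported that quantitative PCR on its microdissected SCN samples was highly concordant with the sequencing. No label gives a library's batch, so time of day and any batch that follows these clusters cannot be told apart in what follows. Mitochondrial genes held 3.18 to 4.51% of the counted reads at ZT2 and 8.69 to 10.4% at ZT6. The 10 most abundant genes held 5.92 to 7.34% at ZT2 and 9.72 to 11.7% at ZT6.

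edgeR's quasi-likelihood test, with Benjamini-Hochberg adjusted p under 0.05, called 6402 genes (33.8%) different between ZT2 and ZT6. Of the genes tested, 3082 (16.3%) were higher at ZT2 and 3320 (17.5%) were higher at ZT6. A difference of at least 2-fold was found for 4983 called genes (26.3%), and of at least 8-fold for 1145, of which 574 were higher at ZT2 and 571 at ZT6. The median size of a called difference was 1.53 on the log2 scale, with quartiles at 1.05 and 2.42. For 8326 genes (44%) the 3 ZT2 libraries did not overlap the 3 ZT6 libraries, and 6009 of these were called. Below, a log2 difference is ZT2 minus ZT6 from this fit with its standard error (SE), so a negative value means higher at ZT6. Levels are TMM-normalized CPM, reads of a gene relative to all reads counted in its library, listed for libraries A, B and C in that order. The median log2 difference over all tested genes was 0.03.

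Of 25 clock loop genes, 9 were higher at ZT6, 5 were higher at ZT2 and 11 did not pass the test. The 14 called are 56% of the list, against 33.8% of all tested genes (17.5% higher at ZT6 and 16.3% higher at ZT2). The share given in brackets beside each list below is the share of its tested members called in either direction, to be read against these. Outside the clock list, most named members were picked among called genes whose libraries did not overlap. Their separation follows from that choice and is no further evidence. *Per1*, *Per2*, *Per3* and *Cry1*, which encode repressors of the loop, were higher at ZT6, and the repressor gene *Cry2* did not pass the test. *Per1* was at 10.5, 18.6 and 19.1 CPM at ZT2 and 50.6, 57.4 and 102 CPM at ZT6, a log2 difference of -2.12 ± 0.30 (adjusted p = 2.76e-05). *Per2* was at 24.4, 25.8 and 29 CPM at ZT2 and 92.6, 84.8 and 192 CPM at ZT6, a log2 difference of -2.22 ± 0.29 (adjusted p = 1.72e-05). The lowest ZT6 library was well above the highest ZT2 library for both genes, and ZT6 library C was the highest of the 6. *Per3* was at 19.9, 22.9 and 42.7 CPM at ZT2 and 42.2, 81.4 and 126 CPM at ZT6 (log2 difference -1.54 ± 0.37, adjusted p = 0.00332), and here ZT6 library A fell just under ZT2 library C. *Cry1* was at 31.7, 32.1 and 18.7 CPM at ZT2 and 45.9, 43.3 and 78.1 CPM at ZT6, a log2 difference of -1.02 ± 0.26 (adjusted p = 0.00485), with no overlap. *Cry1* was not called when only the 6 libraries of ZT2 and ZT6 were fitted. By quantitative PCR, the paper found a further *Cry1* start site whose expression ran in antiphase to the canonical one. Counts per gene do not separate these isoforms. With an offset that removed each library's trend of counts with exonic length and GC content, *Per1* differed by -1.07.

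The E-box binding repressors DEC1 and DEC2 moved in opposite directions. *Bhlhe40*, which encodes DEC1, was at 129, 151 and 119.7 CPM at ZT2 and 32.8, 41.1 and 28.4 CPM at ZT6, a log2 difference of 1.97 ± 0.26 (adjusted p = 1.81e-05). *Bhlhe41*, which encodes DEC2, was at 403, 416 and 353 CPM at ZT2 and 628, 662 and 701 CPM at ZT6, a log2 difference of -0.76 ± 0.27 (adjusted p = 0.0376). Neither gene had overlapping libraries. The ROR receptors also split. *Rora* was at 237, 342 and 246 CPM at ZT2 and 554, 643 and 465 CPM at ZT6 (log2 difference -1.01 ± 0.18), while *Rorb* was at 1033, 1317 and 1006 CPM at ZT2 and 436, 558 and 447 CPM at ZT6 (log2 difference 1.22 ± 0.23, adjusted p = 4.49e-04). All ZT6 libraries were above all ZT2 libraries for *Rora* and below them for *Rorb*.

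Among the D-box factors, *Hlf* was at 153, 169 and 165 CPM at ZT2 and 268, 279.5 and 258 CPM at ZT6 (log2 difference -0.73 ± 0.14, adjusted p = 6.78e-04) and *Dbp* was at 69.8, 70.8 and 51.2 CPM at ZT2 and 100.2, 109.7 and 104 CPM at ZT6 (log2 difference -0.71 ± 0.24, adjusted p = 0.0297), both without overlap. *Tef* was the other way round, at 252, 241 and 229.8 CPM at ZT2 and 138, 159.5 and 187 CPM at ZT6 (log2 difference 0.58 ± 0.14). With the length and GC offset the direction of *Dbp* turned, to a log2 difference of 1.04 that was itself called (edgeR adjusted p = 0.00512). *Csnk1d*, a kinase of the PER proteins, was higher at ZT2 with a log2 difference of 0.86 ± 0.30. *Clock* was at 78, 96.8 and 46.4 CPM at ZT2 and 37.7, 36.9 and 51.3 CPM at ZT6 (log2 difference 0.81 ± 0.25), and ZT6 library C was above ZT2 library C. Leaving out single ZT2 or ZT6 libraries ended the calls of *Bhlhe41* (any 1 of the 6), *Dbp* (ZT2 C, ZT6 B or ZT6 C), *Csnk1d* (ZT2 B, ZT2 C, ZT6 B or ZT6 C) and *Clock* (ZT2 B, ZT6 A or ZT6 B). *Tef* and *Clock* were not called in the fit to the 6 libraries alone, nor *Clock* with the offset, *Bhlhe41* with upper-quartile normalization, or *Csnk1d* with limma-voom or the recovered reads. Without ZT2 library B, or without ZT6 library B, 3 clock loop genes in place of 5 were called higher at ZT2.

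The activator partner *Arntl* was at 31.3, 29.1 and 19.1 CPM at ZT2 and 21.9, 24.4 and 22.2 CPM at ZT6, a log2 difference of 0.21 ± 0.26 that did not pass the test (adjusted p = 0.557). *Cry2* differed by 0.08 ± 0.30 and *Nr1d2* by -0.41 ± 0.31, neither past the threshold. *Nr1d1*, which encodes REV-ERBα, was at 64.4, 315 and 699 CPM at ZT2 and 254, 219 and 112 CPM at ZT6. Its ZT2 libraries ranged more widely than those of any other clock loop gene described here, and its log2 difference of 0.88 ± 0.69 did not pass the test (adjusted p = 0.344). *Nr1d1* overlaps *Thra* on the opposite strand, and whether the counting used strand is not given in the sources used here, so its reads are uncertain. *Npas2*, *Nfil3*, *Ciart*, *Csnk1e*, *Fbxl21* and *Timeless* did not pass either, with log2 differences between -0.89 (*Nfil3*) and 0.71 (*Ciart*), and *Fbxl21* passed with the offset.

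**Figure D1:**
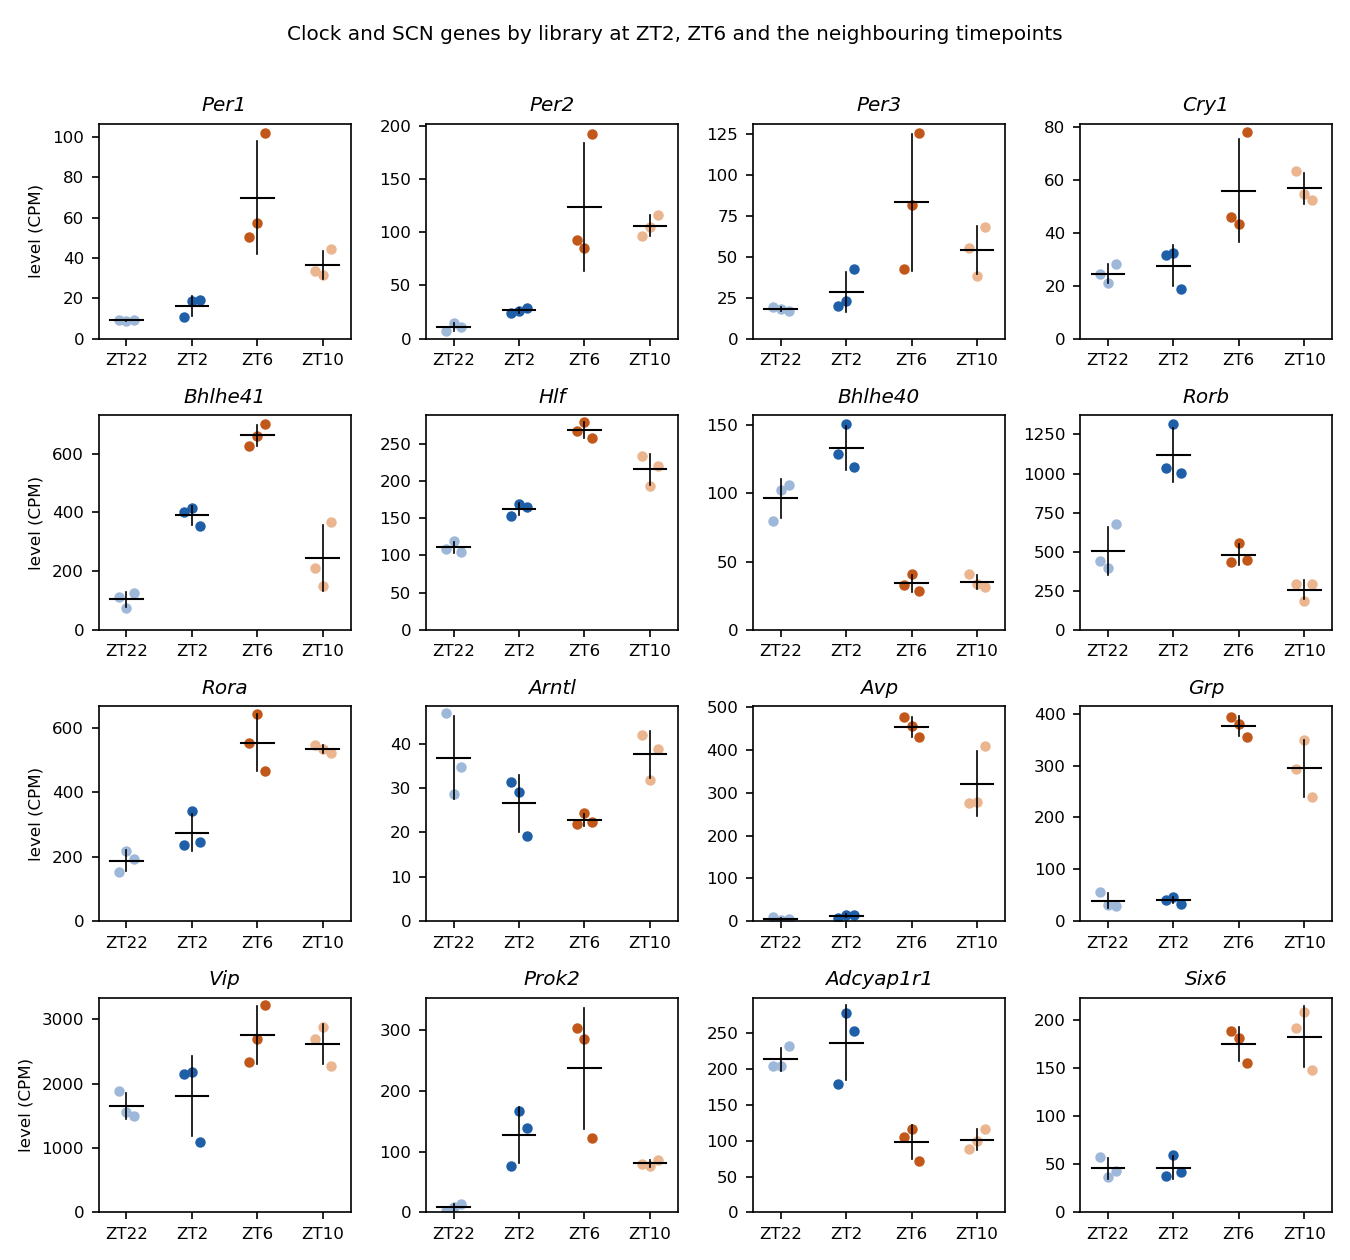
Level in CPM (vertical axes, from 0) of 16 clock and SCN genes in each library at ZT22, ZT2, ZT6 and ZT10 (horizontal axes). Points are libraries, horizontal bars are means and vertical bars are SD over 3 libraries. *Per1*, *Per2*, *Avp*, *Grp* and *Six6* are higher in every ZT6 library than in every ZT2 library, *Bhlhe40*, *Rorb* and *Adcyap1r1* are lower, and *Arntl* overlaps.

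Promoter sequence was read for the clock loop genes because CLOCK and BMAL1 bind E-box sequences, through which they activate the *Per* and *Cry* genes. Windows of 300 bases, from 250 before to 50 after the RefSeq start (build GRCm38.p6), were searched for CACGTG (E-box, its own reverse complement), TTATGTAA or its reverse complement TTACATAA (D-box) and TGACGTCA (cAMP response element, CRE, its own reverse complement). A window was at hand for 20 of the 25 clock loop genes. The E-box letters lay in the windows of *Bhlhe41*, *Ciart*, *Cry1*, *Per1* and *Tef*, 25% of the 20, against 8.09% of all 27025 RefSeq promoter genes and 10.8% of the 12419 tested genes with a window. They lay in 3 of the 7 clock loop genes higher at ZT6 that had a window, in 1 of the 3 higher at ZT2 (*Tef*) and in 1 of the 10 not called (*Ciart*). D-box letters lay in *Per3* and *Timeless*, and CRE letters in *Hlf*. The matches of the 5 E-box genes and of *Per3* are shown with 11 bases on each side, 5′ to 3′ on the gene's strand, with the matched letters in capitals:
Per1, E-box, chr11:69098772-69098799, plus strand: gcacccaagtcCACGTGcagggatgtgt
Cry1, E-box, chr10:85185098-85185125, minus strand: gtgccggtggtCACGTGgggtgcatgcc
Bhlhe41, E-box, chr6:145865557-145865584, minus strand: ggtacgttccgCACGTGagctgggtgct
Tef, E-box, chr15:81802535-81802562, plus strand: tgctgtggctcCACGTGctgcagctggc
Tef, E-box, chr15:81811265-81811292, plus strand: acctggcccagCACGTGtctacatcgtt
Ciart, E-box, chr3:95882328-95882355, minus strand: gcatctagagtCACGTGttgccggtaag
Ciart, E-box, chr3:95882270-95882297, minus strand: gcagggggaggCACGTGcagaaccgcac
Ciart, E-box, chr3:95882256-95882283, minus strand: gtgcagaaccgCACGTGtctgggagggg
Per3, D-box, chr4:151044852-151044881, minus strand: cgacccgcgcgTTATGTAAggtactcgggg
Per3, D-box, chr4:151044805-151044834, minus strand: cccgcccgcggTTATGTAAcccccgccgtg
Across all called genes with a window, E-box letters lay in 11.2% of those higher at ZT2 and in 11.6% of those higher at ZT6. CRE letters lay in 3.42% and 4.29%, and D-box letters in 0.667% and 0.701%. These shares describe letters in a window and not binding.

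Of 19 tested neuropeptide genes of the SCN, 6 (31.6%) were called, all higher at ZT6, against 33.8% of all genes in either direction and 17.5% in this one. The other 13 did not pass the test, and the median log2 difference was -0.89, or -0.50 with the length and GC offset. *Avp*, which encodes vasopressin of the SCN shell, was at 8.09, 13.9 and 14.2 CPM at ZT2 and 478, 455 and 429.6 CPM at ZT6, a log2 difference of -5.23 ± 0.36 (adjusted p = 1.03e-08). *Grp*, which encodes gastrin-releasing peptide of the SCN core, was at 40.5, 46 and 34 CPM at ZT2 and 394, 379.9 and 356 CPM at ZT6, a log2 difference of -3.23 ± 0.29 (adjusted p = 3.12e-07). The lowest ZT6 library of each gene was several times its highest ZT2 library. With the length and GC offset *Avp* differed by -2.72 and *Grp* by -2.75. *Penk* was at 73.7, 74 and 76.3 CPM at ZT2 and 547, 201 and 89.9 CPM at ZT6 (log2 difference -1.91 ± 0.58), where the ZT2 libraries were close together and the ZT6 libraries spread widely. *Nmu* and *Cartpt* were low in all 6 libraries, with log2 differences of -2.80 ± 0.99 and -2.36 ± 0.69. The call of *Penk* ended with limma-voom and without ZT2 B, ZT2 C or ZT6 A, and that of *Cartpt* without ZT2 A or ZT2 B. The call of *Nmu* ended with the recovered reads, with the offset, and without any 1 ZT2 library, ZT6 A or ZT6 B.

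*Vip*, which encodes the peptide that synchronises SCN neurons, was at 2148, 2184 and 1087 CPM at ZT2 and 2341, 2697 and 3231 CPM at ZT6, a log2 difference of -0.61 ± 0.25 that did not pass (adjusted p = 0.0664), although the groups did not overlap. It passed with limma-voom, with at least 10 reads in every library, with the recovered reads, with the offset and without ZT18 library C. *Prok2*, an SCN output signal, was at 77.1, 168 and 139 CPM at ZT2 and 303, 286 and 122 CPM at ZT6 and did not pass (log2 difference -0.89 ± 0.45), and *Nms* differed by -0.12 ± 0.19. Without ZT2 library B, 3 neuropeptide genes were called higher at ZT6 in place of 6, and without ZT6 library A, 3 were called higher at ZT2 in place of 0. The offset and limma-voom each called 1 higher at ZT2. Of 16 neuropeptide genes with a promoter window, 5 held the E-box letters, namely *Avp*, *Cck*, *Nmu*, *Prok2* and *Tac1*. The match of *Avp*, whose difference was among the largest, was:
Avp, E-box, chr2:130582711-130582738, minus strand: actgacaggccCACGTGtgtccccagat

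Of 24 tested genes for receptors of these peptides and of inputs to the SCN, 7 were higher at ZT2 and 1 at ZT6, with a median log2 difference of 1.01. The median lay between 0.46 and 1.19 over the alternatives. With the offset it was 0.71, with 7 called higher at ZT2 and 0 at ZT6. The 8 called are 33.3%, close to the share of all genes, and 16 did not pass. *Adcyap1r1*, the PACAP receptor on the retinal input, was at 179, 279 and 253 CPM at ZT2 and 105, 117 and 71.4 CPM at ZT6 (log2 difference 1.28 ± 0.21, adjusted p = 1.49e-04). *Oprl1*, the nociceptin receptor, was at 245, 292 and 206 CPM at ZT2 and 46.9, 66.6 and 74.2 CPM at ZT6 (log2 difference 1.99 ± 0.22, adjusted p = 2.09e-06). *Grpr*, the receptor for gastrin-releasing peptide, was at 31, 26.7 and 18.1 CPM at ZT2 and 7.42, 9.8 and 11.9 CPM at ZT6 (log2 difference 1.38 ± 0.45). The groups of each of the 3 genes were separate. The call of *Grpr* ended with the offset and without ZT2 A, ZT2 B, ZT6 A or ZT6 B. *Htr1a*, a serotonin receptor, had 331 reads over the ZT2 libraries and 2 over the ZT6 libraries, a ratio of 161.6 with a 95% counting interval of 44.4 to 1340. *Sstr1* was higher at ZT6, at 0.566, 3.53 and 2.5 CPM at ZT2 and 9.59, 12.3 and 4.78 CPM at ZT6, and was not called with the offset or when only the 6 libraries were fitted. *Vipr2*, the VIP receptor of the SCN, differed by 0.38 ± 0.20 and *Avpr1a* by -0.61 ± 0.41, neither past the threshold.

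Of 14 tested transcription factors of SCN development, 9 were higher at ZT6 and 1, *Rorb*, at ZT2 (71.4%), with a median log2 difference of -1.13. *Six6*, needed for the SCN to form, was at 37.3, 59.7 and 42.2 CPM at ZT2 and 189, 181 and 155 CPM at ZT6 (log2 difference -1.91 ± 0.23, adjusted p = 7.20e-06). *Six3* was at 129.8, 138 and 99.2 CPM at ZT2 and 313, 327 and 269.9 CPM at ZT6 (log2 difference -1.31 ± 0.19). Every ZT6 library was well above every ZT2 library for both. *Dlx2* was at 3.73, 6.46 and 5.78 CPM at ZT2 and 17.6, 28 and 52.9 CPM at ZT6 and *Vax1* at 1.24, 1.55 and 1.85 CPM at ZT2 and 8.81, 10.9 and 16.2 CPM at ZT6, with log2 differences of -2.62 ± 0.56 and -2.94 ± 0.61. With the offset, *Vax1* differed by -0.56 and was not called. *Lhx1*, which sets terminal differentiation of SCN neurons, was at 134, 186 and 119.7 CPM at ZT2 and 222, 243 and 225 CPM at ZT6 and did not pass (log2 difference -0.65 ± 0.27, adjusted p = 0.0711), although the groups did not overlap. It passed with DESeq2, with at least 10 reads in every library, with the recovered reads, with the replicate block, with the offset, and without ZT2 library B or ZT18 library C. The offset gave *Dlx2* a log2 difference of -1.81.

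Of 34 tested immediate early and activity-induced genes, 11 were higher at ZT6, 6 were higher at ZT2 (50%) and 17 did not pass, with a median log2 difference of -0.99, or -0.44 with the length and GC offset. The AP-1 gene *Junb* was at 0.283, 0.603 and 0.578 CPM at ZT2 and 16.9, 13.9 and 13 CPM at ZT6 (log2 difference -4.88 ± 0.60, adjusted p = 7.97e-06). *Jun* was at 4.47, 3.1 and 4.05 CPM at ZT2 and 14.4, 12.1 and 22.1 CPM at ZT6 (log2 difference -2.06 ± 0.37) and *Jund* at 10.6, 11.3 and 10.7 CPM at ZT2 and 47.2, 46.5 and 46.7 CPM at ZT6 (log2 difference -2.11 ± 0.20). For these AP-1 genes every ZT6 library was above every ZT2 library. With the length and GC offset *Junb* differed by -2.95, and *Jund* by 0.25, in the other direction and not called. *Fos* was at 9.27, 23.8 and 42.2 CPM at ZT2 and 64.2, 49.7 and 56.2 CPM at ZT6 and missed the threshold (log2 difference -1.18 ± 0.50, adjusted p = 0.0782). It passed under 8 alternatives, among them DESeq2, limma-voom and the offset.

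*Sik1*, a kinase that restrains CREB coactivators, was at 29.6, 40.6 and 30.8 CPM at ZT2 and 53.7, 67.8 and 112 CPM at ZT6 (log2 difference -1.21 ± 0.29, adjusted p = 0.00318). Its coactivator target *Crtc1* was at 2.43, 5.12 and 9.05 CPM at ZT2 and 74.4, 61 and 52.8 CPM at ZT6 (log2 difference -3.49 ± 0.37). *Creb1* itself was at 63, 55.8 and 43.7 CPM at ZT2 and 27.8, 43.4 and 45.4 CPM at ZT6, with overlap and no call. *Egr1* was higher at ZT2, at 42.3, 45.5 and 24.5 CPM at ZT2 and 14.6, 14.7 and 24 CPM at ZT6 (log2 difference 1.07 ± 0.35), and ZT6 library C was just under the lowest ZT2 library. *Btg2* was at 72.2, 97.1 and 81.2 CPM at ZT2 and 37, 42.1 and 33.8 CPM at ZT6 (log2 difference 1.15 ± 0.24). Without ZT2 library B, 2 activity-induced genes were called higher at ZT2 in place of 6, and *Egr1* was not among those called. The call of *Egr1* also ended with the recovered reads and without ZT2 A, ZT6 A or ZT6 B, and the offset gave it a log2 difference of 1.73. *Arc*, *Nr4a1* and *Fosb* did not pass, with log2 differences of -0.42 ± 0.52, -0.94 ± 0.43 and -2.70 ± 1.57, and *Nr4a1* passed without ZT2 library C.

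Of 20 glucocorticoid receptor and response genes, 5 were higher at ZT6 and 0 at ZT2 (25%). The median log2 difference was 0.35, but 0.06 with the length and GC offset and -0.26 without ZT2 library C. *Per1* was among the 5, as was *Nfkbia*, which encodes an inhibitor of NF-κB, at 4.47, 6.37 and 5.59 CPM at ZT2 and 52.5, 40.5 and 14.4 CPM at ZT6 (log2 difference -2.71 ± 0.40). The widely used response genes *Fkbp5* and *Sgk1* did not pass, with -0.45 ± 0.31 and 0.44 ± 0.52, and neither did the receptor gene *Nr3c1*, with 0.59 ± 0.29. With the offset 3 were called higher at ZT6. Without ZT6 library A, or without C, 2 members were called higher at ZT2, and 1 without ZT6 library B.

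Of 14 tested GABA-A receptor subunit genes, 8 were higher at ZT2 and 2 at ZT6 (71.4%), with a median log2 difference of 0.97. With the length and GC offset the median was 0.65, and 6 were called higher at ZT2 and 2 at ZT6. *Gabrb2* was at 127, 105 and 90.4 CPM at ZT2 and 20, 13.3 and 0.284 CPM at ZT6 (log2 difference 3.26 ± 0.73), with ZT6 library C far under the other ZT6 libraries. *Gabra2* was at 102, 128 and 77.7 CPM at ZT2 and 25.4, 34.4 and 24.2 CPM at ZT6 (log2 difference 1.87 ± 0.28). *Gabrb1* was higher at ZT6, at 26.8, 31.9 and 21.4 CPM at ZT2 and 80.8, 103 and 60.1 CPM at ZT6 (log2 difference -1.61 ± 0.23), and so was *Gabrg3*, at 48.5, 62.5 and 48.1 CPM at ZT2 and 92.7, 90.9 and 88.7 CPM at ZT6 (log2 difference -0.78 ± 0.22). The groups did not overlap for these subunits, which the rule for naming them required. Without ZT2 library C, *Gabrg3* was not called.

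Genes of GABA synthesis, GABA transport and chloride cotransport were higher at ZT6 in 4 of 9 cases and at ZT2 in 2 (66.7%). *Slc32a1*, the vesicular GABA transporter, was at 23.6, 33.4 and 21.3 CPM at ZT2 and 69.5, 68.3 and 167 CPM at ZT6 (log2 difference -1.96 ± 0.32). *Gad2*, one of the GABA-synthesising enzymes, was at 405, 449 and 334 CPM at ZT2 and 621, 698 and 705 CPM at ZT6 (log2 difference -0.77 ± 0.16), while *Gad1*, the other, was at 558, 779 and 913 CPM at ZT2 and 709, 713 and 811 CPM at ZT6 with overlap and no call. *Slc12a5*, the chloride extruder KCC2, was at 39.2, 65.6 and 52.5 CPM at ZT2 and 109, 119 and 122 CPM at ZT6 (log2 difference -1.15 ± 0.21), and the chloride importer *Slc12a2* (NKCC1) differed by -0.16 ± 0.22 with no call, except with the offset. *Abat*, which degrades GABA, was higher at ZT2, at 744, 1550 and 1405 CPM at ZT2 and 473, 492 and 366 CPM at ZT6 (log2 difference 1.48 ± 0.25). With the offset, *Slc32a1* differed by -0.17 and *Slc12a5* by -0.33, and neither was called.

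Of 15 tested ionotropic glutamate receptor genes, 6 were higher at ZT2 and 3 at ZT6 (60%). *Grin2b*, an NMDA receptor subunit, was at 311, 418 and 391 CPM at ZT2 and 85.6, 111 and 66.2 CPM at ZT6 (log2 difference 2.09 ± 0.30). *Grin1*, the subunit all NMDA receptors need, was at 5.54, 8.69 and 9.98 CPM at ZT2 and 64.8, 49.8 and 56.3 CPM at ZT6 (log2 difference -2.81 ± 0.26, adjusted p = 3.95e-07) and so in the opposite direction, with no overlap in either gene. The AMPA receptor genes *Gria2* and *Gria3* were higher at ZT2, with *Gria2* at 897, 829.6 and 604 CPM at ZT2 and 230.3, 298 and 283 CPM at ZT6 (log2 difference 1.52 ± 0.20) and *Gria3* at 116, 82.5 and 66.6 CPM at ZT2 and 13.4, 8.19 and 10.3 CPM at ZT6 (log2 difference 3.05 ± 0.32). *Grin2c* differed by -1.66 ± 0.32 in the counts and by 0.20 with the offset, where it was not called. *Grik5* was also not called with the offset, which gave *Grin1* a log2 difference of -1.77.

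Of 29 tested potassium channel genes, 6 were higher at each timepoint (41.4%). *Kcnab1* was at 108, 43.2 and 73.5 CPM at ZT2 and 22.6, 11.6 and 3.22 CPM at ZT6 (log2 difference 2.58 ± 0.57) and *Kcna1* at 60.05, 33 and 29.9 CPM at ZT2 and 21.7, 7.01 and 6.77 CPM at ZT6 (log2 difference 1.79 ± 0.47). In the other direction, *Kcnh2* was at 0.339, 1.33 and 2.58 CPM at ZT2 and 14.4, 15.8 and 21.8 CPM at ZT6 (log2 difference -3.59 ± 0.72). *Kcnma1*, the BK channel that shapes the daily rhythm of SCN firing, was at 79, 105 and 88.5 CPM at ZT2 and 72.4, 68 and 50.5 CPM at ZT6 and did not pass (log2 difference 0.52 ± 0.26, adjusted p = 0.144). Of 27 sodium, calcium, NALCN and HCN channel genes, 9 were higher at ZT2 and 8 at ZT6 (63%). *Scn2b* was at 980.4, 1061 and 1119 CPM at ZT2 and 485, 358 and 118 CPM at ZT6 (log2 difference 1.72 ± 0.31) and *Cacna1g*, a T-type calcium channel, at 11.7, 13.7 and 16.4 CPM at ZT2 and 50.4, 70.5 and 81.4 CPM at ZT6 (log2 difference -2.27 ± 0.26). The leak channel *Nalcn* differed by 0.53 ± 0.24 and was called only without ZT6 library C. The median of these 27 genes was -0.30 in the counts and 0.15 with the offset, under which 3 were called higher at ZT6 in place of 8, and *Cacna1g* and *Kcnh2* differed by -1.51 and -2.12.

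Of 33 genes of synaptic vesicle release, 11 were higher at ZT2 and 5 at ZT6 (48.5%). The SNARE gene *Snap25* was at 4143, 4206 and 4272 CPM at ZT2 and 2172, 1763 and 1649 CPM at ZT6 (log2 difference 1.18 ± 0.17), and *Nsf*, which recycles SNARE complexes, was at 1265, 1456 and 1117 CPM at ZT2 and 335, 346 and 239.5 CPM at ZT6 (log2 difference 2.06 ± 0.23). *Rab3a* was higher at ZT6, at 37.7, 89 and 132 CPM at ZT2 and 839, 543 and 309 CPM at ZT6 (log2 difference -2.71 ± 0.37), and *Sncb*, which encodes β-synuclein, was at 0.961, 3.19 and 14.8 CPM at ZT2 and 108, 71.7 and 46.6 CPM at ZT6 (log2 difference -3.55 ± 0.68). With the offset *Sncb* differed by -1.97. *Syt1*, the calcium sensor of release, differed by 0.20 ± 0.18 with no call. Of 41 tested genes of cAMP, calcium and G-protein signalling, 14 were higher at ZT2 and 6 at ZT6 (48.8%). *Rgs4*, which shortens G-protein signals, was at 384, 234 and 184 CPM at ZT2 and 79.5, 41.4 and 36.1 CPM at ZT6 (log2 difference 2.35 ± 0.40) and *Adcy1*, an adenylyl cyclase, was at 125, 79.1 and 99.3 CPM at ZT2 and 34.7, 27.2 and 26.5 CPM at ZT6 (log2 difference 1.78 ± 0.42). The ZT2 libraries of *Rgs4* and *Adcy1* were all well above the highest ZT6 library.

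Energy metabolism gave opposite directions for its pathways. Of 19 glycolysis genes, 12 were higher at ZT2 and 1 at ZT6 (68.4%), with a median log2 difference of 1.09 (1.11 with the offset). *Pkm*, pyruvate kinase, was at 2792, 3900 and 3136 CPM at ZT2 and 974, 859 and 535 CPM at ZT6 (log2 difference 2.05 ± 0.24, adjusted p = 5.45e-06). *Pfkp*, a phosphofructokinase, was at 391, 459 and 305 CPM at ZT2 and 68.4, 59.96 and 88.2 CPM at ZT6 (log2 difference 2.42 ± 0.26) and *Eno1*, an enolase, at 309.7, 310.5 and 296 CPM at ZT2 and 115, 91.4 and 35.4 CPM at ZT6 (log2 difference 1.92 ± 0.29). *Pgam1* alone was called in the other direction, at 19.7, 18.4 and 18 CPM at ZT2 and 93.4, 76.9 and 33.1 CPM at ZT6 (log2 difference -1.86 ± 0.28). With the offset *Pkm* and *Eno1* differed by 2.78 and 2.60. Without ZT2 library C, 2 members were called higher at ZT6. *Hk1*, which passed without ZT2 library C, and *Gapdh* did not pass, and *Gapdh* was counted at only 13.3 to 18.3 CPM, a level made uncertain by its many processed copies.

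Of 80 tested nuclear genes for respiratory complexes and for the ATP synthase, 48 were higher at ZT6 and 7 at ZT2 (68.8%), with a median log2 difference of -0.75. *Cox6a1* was at 37, 35.9 and 40.5 CPM at ZT2 and 1214, 1066 and 694 CPM at ZT6 (log2 difference -4.71 ± 0.22), *Cox8a* was at 66.4, 47.6 and 56.9 CPM at ZT2 and 1299, 1167 and 885 CPM at ZT6 (log2 difference -4.29 ± 0.22) and *Ndufa6* at 20.6, 21.2 and 56.6 CPM at ZT2 and 661, 880.3 and 776 CPM at ZT6 (log2 difference -4.55 ± 0.49). The groups of these small subunits of complexes IV and I did not overlap, and with the length and GC offset the log2 differences of *Cox6a1* and *Cox8a* were -2.38 and -2.69. *Sdha*, the large catalytic subunit of complex II, was higher at ZT2, at 1352, 1498 and 1281 CPM at ZT2 and 374, 396 and 262 CPM at ZT6 (log2 difference 2.00 ± 0.19), as were *Ndufs1*, at 293, 292 and 267 CPM at ZT2 and 104, 98.4 and 97.5 CPM at ZT6, and *Ndufa9*, at 428, 397 and 369 CPM at ZT2 and 236, 162 and 76.9 CPM at ZT6. With the length and GC offset, 16 members were called higher at ZT2 in place of 7, and the median was -0.54. All 5 called of the 8 tested respiratory genes of the mitochondrial genome (62.5%) were higher at ZT6. Of these, *mt-Nd6* was at 321, 279.5 and 249.8 CPM at ZT2 and 819, 896 and 1254 CPM at ZT6 (log2 difference -1.80 ± 0.32) and *mt-Nd3* at 41.6, 29 and 17.3 CPM at ZT2 and 146, 185 and 146 CPM at ZT6 (log2 difference -2.44 ± 0.38). With the offset these differed by -1.05 and -1.50. The share of mitochondrial reads given above moved with them.

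Of 79 tested cytosolic ribosomal protein genes, 45 were higher at ZT6 and 2 at ZT2 (59.5%), with a median log2 difference of -0.68. *Rpl13* was at 14.9, 13.6 and 10.1 CPM at ZT2 and 605, 551 and 371 CPM at ZT6 (log2 difference -5.31 ± 0.27, adjusted p = 2.07e-10), *Rps10* was at 16, 18.9 and 44.7 CPM at ZT2 and 209, 205 and 152 CPM at ZT6 (log2 difference -2.83 ± 0.42), and *Rpl4* was higher at ZT2, at 1520, 1353 and 1327 CPM at ZT2 and 904, 795 and 819.6 CPM at ZT6 (log2 difference 0.74 ± 0.13). Reads of ribosomal protein genes can be split with processed pseudogenes, so single members are uncertain. With the offset 6 members were called higher at ZT2 in place of 2, and 4 with the recovered reads. Leaving out ZT2 A or B, ZT6 B or C, or any of 8 libraries of other timepoints (ZT10 A or C, ZT14 A, B or C, ZT18 B, ZT22 A or C) left 1 in place of 2. Of 73 mitochondrial ribosomal protein genes, 31 were higher at ZT6 and 9 at ZT2 (54.8%), with *Mrpl54* at 10.2, 7.66 and 7.59 CPM at ZT2 and 172, 182 and 207 CPM at ZT6 (log2 difference -4.46 ± 0.18) and *Mrps31* at 84.3, 79.7 and 71.8 CPM at ZT2 and 37, 24.4 and 46.7 CPM at ZT6 (log2 difference 1.12 ± 0.26). With the offset *Rps10* and *Mrpl54* differed by -1.45 and -2.66. In the fit to the 6 libraries alone, 5 of these 73 were higher at ZT2.

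Of 82 spliceosome and splicing factor genes, 44 were higher at ZT6 and 14 at ZT2 (70.7%), with a median log2 difference of -0.59. The small core proteins *Snrpf* and *Lsm4* were at 1.92, 2.67 and 2.04 CPM at ZT2 and 66.6, 76.5 and 65.4 CPM at ZT6 and at 2.6, 2.32 and 3.7 CPM at ZT2 and 80.2, 88.2 and 84.8 CPM at ZT6, with log2 differences of -4.97 ± 0.24 and -4.87 ± 0.34. The large proteins *Sf3b3* and *Snrnp200* were at 191, 203 and 168 CPM at ZT2 and 40.5, 40.1 and 28.1 CPM at ZT6 and at 259.6, 334 and 232 CPM at ZT2 and 76, 88.7 and 78.8 CPM at ZT6, with log2 differences of 2.37 ± 0.32 and 1.76 ± 0.21. When only the 6 libraries of ZT2 and ZT6 were fitted, 29 members were called higher at ZT6 in place of 44. With the offset *Lsm4* differed by -3.43. Of 58 translation factors, 16 were higher at ZT2 and 15 at ZT6 (53.4%). Here *Eif4g2* was at 1432, 1484 and 1389 CPM at ZT2 and 403, 498 and 647 CPM at ZT6 (log2 difference 1.48 ± 0.19) and *Eif1* at 133, 106 and 112 CPM at ZT2 and 1449, 1123 and 700.4 CPM at ZT6 (log2 difference -3.22 ± 0.23).

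Of 46 tested proteasome genes, 12 were called in each direction (52.2%), with *Psmd8* at 21.4, 22.6 and 33.9 CPM at ZT2 and 267, 218 and 133 CPM at ZT6 (log2 difference -2.99 ± 0.28) and *Psmd2* at 242, 302 and 386 CPM at ZT2 and 133, 83.2 and 87.4 CPM at ZT6 (log2 difference 1.62 ± 0.25). Of 30 heat shock chaperone genes, 8 were higher at ZT2 and 7 at ZT6 (50%). *Hsp90ab1* was at 4203, 5198 and 3732 CPM at ZT2 and 1579, 1452 and 789.8 CPM at ZT6 (log2 difference 1.78 ± 0.28), and *Dnajb1*, a cochaperone of HSP70, at 23.9, 30.6 and 21.4 CPM at ZT2 and 90.7, 72.5 and 80.8 CPM at ZT6 (log2 difference -1.69 ± 0.21). *Hsp90aa1* and *Hspa5* did not pass, except *Hsp90aa1* without ZT2 library C. Of the 4 RNA-binding proteins that respond to cold or body temperature, 2 were higher at ZT2 and 1 at ZT6 (75%). *Cirbp* was at 202, 260.5 and 295 CPM at ZT2 and 637, 483 and 400.3 CPM at ZT6 (log2 difference -1.0 ± 0.25) and *Rbm5* at 427, 324 and 475 CPM at ZT2 and 129, 97.4 and 139 CPM at ZT6 (log2 difference 1.75 ± 0.20), in opposite directions, and *Rbm3* did not pass (0.42 ± 0.28).

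Of 23 cholesterol synthesis genes, 10 were higher at ZT2 and 4 at ZT6 (60.9%), with a median log2 difference of 0.81. The median was 0.54 with the offset and lay between 0.33 and 0.89 over the alternatives. The enzyme genes *Fdps*, *Dhcr7* and *Idi1* were higher at ZT2. *Fdps* was at 244, 250.3 and 182 CPM at ZT2 and 70.1, 54.1 and 40.1 CPM at ZT6 (log2 difference 2.04 ± 0.25), and *Dhcr7* was at 99.6, 95.7 and 68.5 CPM at ZT2 and 28.4, 32 and 23.5 CPM at ZT6 (log2 difference 1.65 ± 0.23). The enzyme gene *Tm7sf2* was higher at ZT6 (log2 difference -1.15), as were the regulators *Srebf2* and *Insig1*. *Srebf2*, which switches the pathway on, was at 23.4, 23.7 and 24.8 CPM at ZT2 and 57, 78.4 and 83 CPM at ZT6 (log2 difference -1.60 ± 0.20), and *Insig1*, which holds it back, was at 50.8, 49.97 and 49.1 CPM at ZT2 and 108, 123 and 168 CPM at ZT6 (log2 difference -1.41 ± 0.34). With the offset *Srebf2* differed by -0.86.

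**Figure D2:**
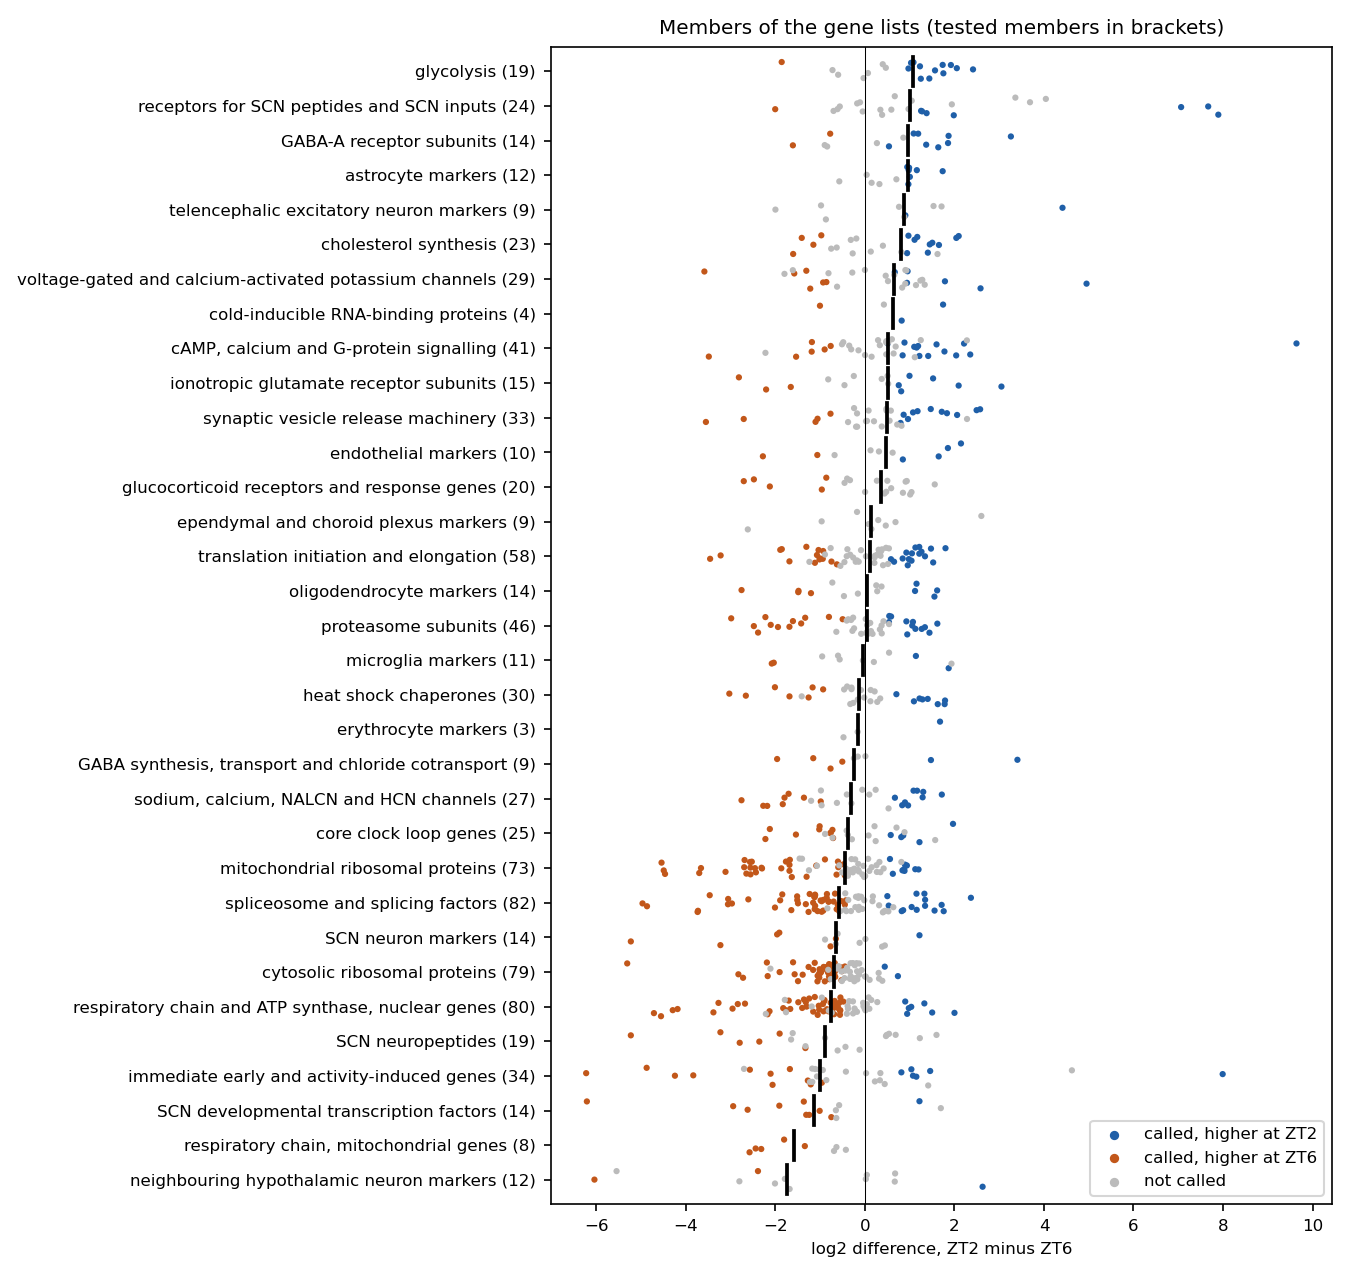
Log2 difference, ZT2 minus ZT6 (horizontal axis), of each tested member of 33 gene lists (rows, ordered by median, with the number tested in brackets). Each point is a gene, coloured by its call, and a black bar is the list's median. Glycolysis lies furthest to the right, with a median of 1.09. Neuropeptides and developmental factors lie to the left, at -0.89 and -1.13, and mitochondrial respiratory genes at -1.57. Neighbouring hypothalamic neuron markers lie furthest to the left, at -1.735.

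Marker genes were used to check the tissue and its other cell types. The 14 SCN neuron markers summed to between 4450 and 5983 CPM per ZT2 library and between 6490 and 7412 CPM per ZT6 library. Of these 14, 6 were higher at ZT6 and 1 at ZT2 (50%), with a median log2 difference of -0.65, so they moved with the neuropeptides and developmental factors above, some of which are on both lists. Their part in those results was not tested. No marker of any list was at 0 in all 6 libraries. Of 12 astrocyte markers, 7 were higher at ZT2 and 0 at ZT6 (58.3%), with a median log2 difference of 0.96, or 0.56 with the length and GC offset. With the offset, with the recovered reads, without ZT10 library B or without ZT18 library C, 1 was called higher at ZT6. They summed to between 7564 and 9183 CPM at ZT2 and between 3339 and 4370 CPM at ZT6. *Aldoc* was at 2944, 2362 and 2640 CPM at ZT2 and 1217, 769.8 and 397 CPM at ZT6 (log2 difference 1.74 ± 0.28), *Slc1a3* was at 2427, 2288 and 1842 CPM at ZT2 and 868, 956 and 1109 CPM at ZT6 (log2 difference 1.16 ± 0.16) and *Aqp4* at 373, 329.9 and 223 CPM at ZT2 and 184, 159 and 137 CPM at ZT6 (log2 difference 0.95 ± 0.21). *Gfap* was at 70.5, 113 and 264 CPM at ZT2 and 161, 127 and 69.8 CPM at ZT6, with overlap and no call. In tissue of this kind, fewer cells of a type and less RNA per cell cannot be told apart. *Aldoc* is also a member of the glycolysis list, and the part of astrocyte RNA in the other glycolysis genes was not tested.

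Of 14 oligodendrocyte markers, 4 were higher at each timepoint (57.1%). The lineage factor *Olig1* was higher at ZT6, at 3.45, 6.76 and 15.7 CPM at ZT2 and 60.3, 58.9 and 56.7 CPM at ZT6 (log2 difference -2.76 ± 0.46). The myelin gene *Mbp* was at 709.9, 609.9 and 2121 CPM at ZT2 and 1690, 624 and 346 CPM at ZT6, with overlap, and was called only without ZT6 library A. The sum of this list ran from 2287 to 4608 CPM at ZT2 and from 1460 to 3263 CPM at ZT6. *Sox10* differed by -1.49 ± 0.38 in the counts and by 0.25 with the offset, and *Olig1* by -1.24 with the offset. With the offset, 1 oligodendrocyte marker was called higher at ZT6 in place of 4. Of 11 microglia markers, 2 were higher at ZT2 and 2 at ZT6 (36.4%), close to the 33.8% of all tested genes. *Cx3cr1* and *P2ry12* were higher at ZT2, with *Cx3cr1* at 67.4, 55.8 and 43 CPM at ZT2 and 19, 9.09 and 17.4 CPM at ZT6. The 2 higher at ZT6 were complement genes, with *C1qc* at 4.69, 3.53 and 3.04 CPM at ZT2 and 19.8, 15.7 and 10.7 CPM at ZT6 (log2 difference -2.04 ± 0.42, or -1.11 with the offset). The microglia list summed to 278.6 to 320.7 CPM at ZT2 and 131.3 to 363.1 CPM at ZT6. Without ZT6 library C 4 microglia markers, and with the offset 1, were called higher at ZT6 in place of 2. Of 10 endothelial markers, 4 were higher at ZT2 and 2 at ZT6 (60%), with sums of 216.6 to 404.9 and 193.9 to 248.9 CPM. Without ZT2 library A, or with the offset, 2 were called higher at ZT2, and with the offset 1 was called higher at ZT6.

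Markers of tissue next to the SCN were also read. *Ttr*, the choroid plexus transthyretin, was at 2048, 2294 and 79.3 CPM at ZT2 and 62.7, 2679 and 11.6 CPM at ZT6, so it was high in 2 ZT2 libraries and 1 ZT6 library. Of 9 ependymal and choroid plexus markers 0 were called in either direction. Without ZT6 library B, 2 of them were called higher at ZT2, and without ZT6 library C 1 was called higher at ZT6. Markers of neighbouring hypothalamic neurons summed to 60.4 to 82.8 CPM at ZT2 and 51.2 to 69.1 CPM at ZT6. Of 12, 1 was higher at ZT2 and 2 at ZT6 (25%), with a median log2 difference of -1.735. The median was -0.21 with limma-voom and 0.65 with at least 10 reads in every library. Leaving out ZT2 B, ZT6 B or ZT6 C left 0 higher at ZT2, and without ZT6 B 4, and without ZT6 C 1, were higher at ZT6. *Oxt*, oxytocin, was at 0.113, 0.258 and 0.116 CPM at ZT2 and 2.08, 26.5 and 4.64 CPM at ZT6, so ZT6 library B held most of its reads. Telencephalic excitatory neuron markers summed to 194.5 to 256.6 CPM at ZT2 and 115.7 to 158.9 CPM at ZT6, and 2 of 9 (22.2%) were higher at ZT2. Of these, *Neurod6* was at 23.8, 15.6 and 43.7 CPM at ZT2 and 1.69, 2.13 and 0.0473 CPM at ZT6 (log2 difference 4.41 ± 0.88). Without ZT2 A, ZT2 B or ZT6 A 1 telencephalic marker was called higher at ZT2, and without ZT18 C 4 were. Of 3 tested erythrocyte markers, 1, *Alas2*, was higher at ZT2 (33.3%, close to the 33.8% of all tested genes). The call of *Alas2* ended with limma-voom, with the replicate block, and without ZT2 A, any ZT6 library or ZT22 C. The list summed to 140.6 to 343.9 CPM at ZT2 and 130.5 to 301.5 CPM at ZT6.

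Across all tested genes, some differences were far larger than the median. With at least 10 reads in each of the 6 libraries and no overlap, the largest difference towards ZT2 was that of *Ppp1ca*, a catalytic subunit of protein phosphatase 1. It was at 146, 221 and 355 CPM at ZT2 and 6.98, 4.36 and 3.12 CPM at ZT6 (log2 difference 5.64 ± 0.39), and it lies beside a run of chromosome 19 genes described below. *Gpr165*, an orphan receptor, was at 263, 349.8 and 198 CPM at ZT2 and 14.7, 22.8 and 16.5 CPM at ZT6 (log2 difference 3.91 ± 0.42), and *Epha3*, an ephrin receptor, at 20.8, 9.21 and 8.63 CPM at ZT2 and 0.781, 0.853 and 1.14 CPM at ZT6 (log2 difference 3.79 ± 0.68). Others in this group of 8 were *A930017M01Rik*, *Ankfn1*, *Ankrd45*, *Coro1b* and the pseudogene *Rps27a-ps2*, between 3.82 (*Ankrd45*) and 4.44 (*Rps27a-ps2*). Towards ZT6 the largest difference was that of *Ly6h*, a modulator of nicotinic receptors, at 5.09, 5.51 and 5.66 CPM at ZT2 and 393, 430.3 and 454 CPM at ZT6 (log2 difference -6.29 ± 0.31). *Gadd45g*, a stress-induced gene, was at 1.98, 3.57 and 3.27 CPM at ZT2 and 269.5, 182 and 103 CPM at ZT6 (log2 difference -5.96 ± 0.42), and *Ap2s1*, a clathrin adaptor subunit, was at 4.69, 4.73 and 5.55 CPM at ZT2 and 239.8, 239 and 160.3 CPM at ZT6 (log2 difference -5.41 ± 0.24). *Avp*, *Rpl13*, *Hist1h2bc*, *Gm1673* and *Gm10157* completed this group. With the offset the log2 differences of *Gadd45g*, *Ap2s1* and *Gm1673* were -4.42, -4.72 and -2.73.

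Among genes with a mean of at least 100 CPM, the smallest p-values towards ZT6 were those of *Adck2*, *Chchd2*, *Pcsk1n*, *Mpc2* and *Ap2s1*. *Chchd2*, a mitochondrial intermembrane protein gene, was at 44.8, 34.6 and 34.9 CPM at ZT2 and 1036, 1087 and 861 CPM at ZT6 (log2 difference -4.71 ± 0.18, adjusted p = 7.74e-12). *Pcsk1n*, which encodes the prohormone convertase inhibitor proSAAS, was at 5.94, 7.45 and 6.09 CPM at ZT2 and 204, 216 and 196 CPM at ZT6 (log2 difference -4.98 ± 0.19). *Mpc2*, a mitochondrial pyruvate carrier subunit, was at 18.3, 11.7 and 10.9 CPM at ZT2 and 375, 382 and 464 CPM at ZT6 (log2 difference -4.91 ± 0.21). *Adck2* differed by -3.80 ± 0.15 in the counts and by -0.63 in the reads recovered from the normalized table, where it was not called. Towards ZT2 the smallest were those of *Gstp1*, *Armh4*, *Ndrg3*, *Rab5b* and *Ppp1ca*. *Ndrg3* was at 1172, 1109 and 1003 CPM at ZT2 and 253, 195 and 220.2 CPM at ZT6 (log2 difference 2.29 ± 0.17) and *Rab5b*, an early endosome GTPase, at 215, 221 and 204 CPM at ZT2 and 51.2, 58.2 and 44.5 CPM at ZT6 (log2 difference 2.06 ± 0.16).

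Some genes had no read at all at one timepoint. With at least 10 reads in each ZT2 library, 76 genes had none at ZT6, and 22 genes had none at ZT2 with at least 10 in each ZT6 library. Fewer genes had a read at ZT6 in general, between 15688 and 16863 per library against 17915 to 18884 at ZT2. The part of this in the 76 and 22 was not tested. Against a floor of 3 reads over the group, *Htr2a*, a serotonin receptor, was at least 192.1-fold higher at ZT2, where it was at 14.4, 8.13 and 5.66 CPM. *Gm13050* was at least 175.5-fold higher and *Dapp1* at least 156.2-fold higher. In the other direction *Gm12350* was at least 257.7-fold, *Gm8973* at least 159.1-fold and *Hist1h2al* at least 151.6-fold higher at ZT6. All 3 are annotated as processed pseudogenes. In the recovered reads *Gm8973* was not called and the log2 difference of *Gm12350* was -3.48. Such floors cover counting error only, since amplified reads are not independent molecules.

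Genes with almost no reads at one timepoint also lay side by side. There were 5 runs of at least 4 neighbouring tested genes whose levels differed at least 10-fold in the same direction. The longest held 10 genes on chromosome 19, from *Gstp1* to *Carns1* (chr19:4035407-4175479, GRCm38), of which 9 were called. Over these 10 genes 52358 reads were counted at ZT2 and 152 at ZT6. At the other timepoints the same genes held 160 (ZT10), 87544 (ZT14), 72332 (ZT18) and 72333 (ZT22) reads, so only ZT6 and ZT10 were low. *Gstp1*, a glutathione transferase, was at 540.5, 631 and 449.7 CPM at ZT2 and 0.26, 0.284 and 0.142 CPM at ZT6 (log2 difference 11.17 ± 0.28, adjusted p = 3.05e-14). A run of 5 on chromosome 4 (chr4:143242024-143421091), from *Gm13050* to *Pramef8*, held 6736 reads at ZT2 and 8 at ZT6, with 7 at ZT10 and 6098 at ZT22. *Pdpn*, which encodes podoplanin, lies in it, at 40.8, 34.3 and 31.5 CPM at ZT2 and 0.0434, 0 and 0.237 CPM at ZT6. Runs on chromosome 1 (*Aim2* to *Ifi204*) and elsewhere on chromosome 4 (chr4:42158842-42856771) were also low at ZT6, with 150 against 0 reads and 111 against 1. These rest on few reads: ZT2 library A held 100 of the 150, the chromosome 1 run had 67 reads at ZT10 and 42 at ZT18, and 3 of its 4 genes and 3 of the 5 on chromosome 4 were called. The calls of *Ifi207*, *Ccl19* and *4930578G10Rik* each ended under 4 to 7 alternatives, most of them leaving out a ZT2 or ZT6 library. A run of histone genes on chromosome 13 (*Hist1h4h* to *Hist1h2ae*) was low at ZT2, with 11 against 645 reads, and 2 of its 4 genes were called. Without the genes of these runs 6381 genes were called.

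**Figure D3:**
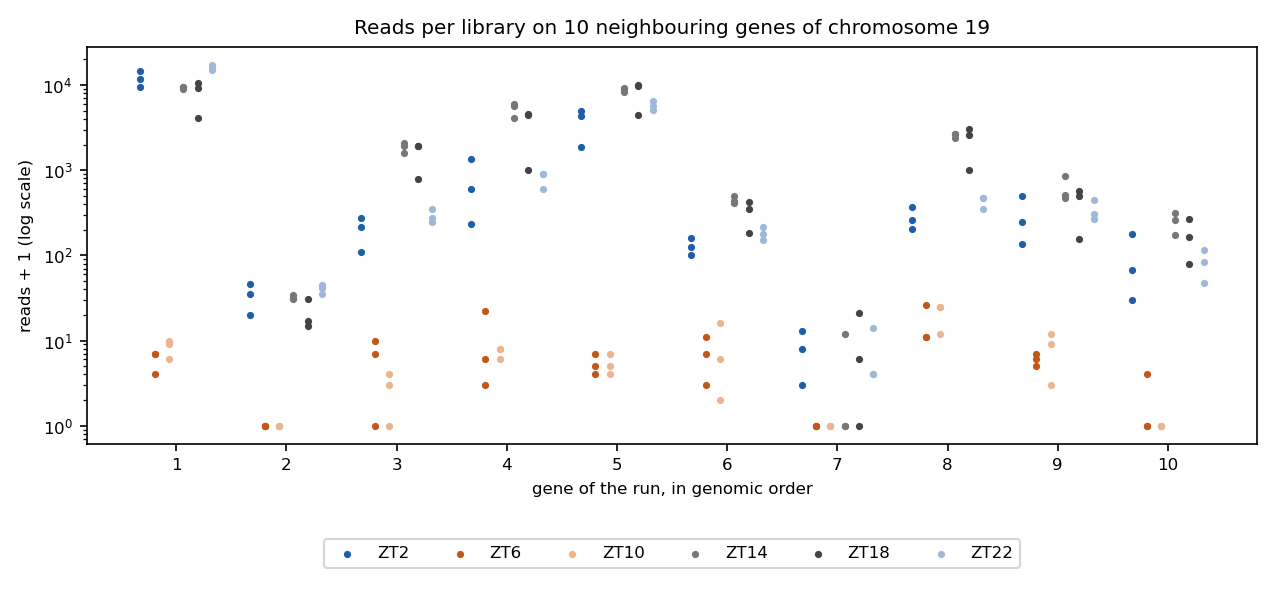
Reads plus 1 (vertical axis, log scale) on 10 neighbouring genes of chromosome 19 (horizontal axis, numbered in genomic order) in each library, coloured by timepoint. Points at ZT6 and ZT10 lie near the bottom for every gene, with 152 and 160 reads in all, while the 10 genes hold 52358 reads at ZT2.

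The differences followed base composition and length. Genes with a mean of at least 10 reads were split into 5 bins of rising GC content of their exons. The median log2 difference was 0.21, 0.27, 0.25 and 0.02 in the lower 4 bins and -0.93 in the highest, whose genes were between 55.3 and 72.1% GC. In that bin 5.69% of genes were higher at ZT2 and 38.9% at ZT6. By exonic length the median ran from -0.64 in the shortest of 5 bins to 0.27 in the longest. Between ZT22 and ZT10 the same bins of GC content had medians of 0.20, 0.27, 0.23, 0.01 and -0.79. Within the clusters the medians of the highest GC bin were -0.18 for ZT2 minus ZT22 and -0.10 for ZT6 minus ZT10. With an offset that removed each library's trend with length and GC, the medians of the GC bins lay between -0.05 and 0.11 and 5921 genes were called. These held 4731 of the 6402 (73.9%), and 219 of the 6402 had the other sign, of which 46 were called in both. By class, 2811 of 15108 tested protein-coding genes were higher at ZT2 and 2801 at ZT6, while 134 of 2135 pseudogenes were higher at ZT2 and 404 at ZT6. The part of composition in any single gene's difference was not tested.

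**Figure D4:**
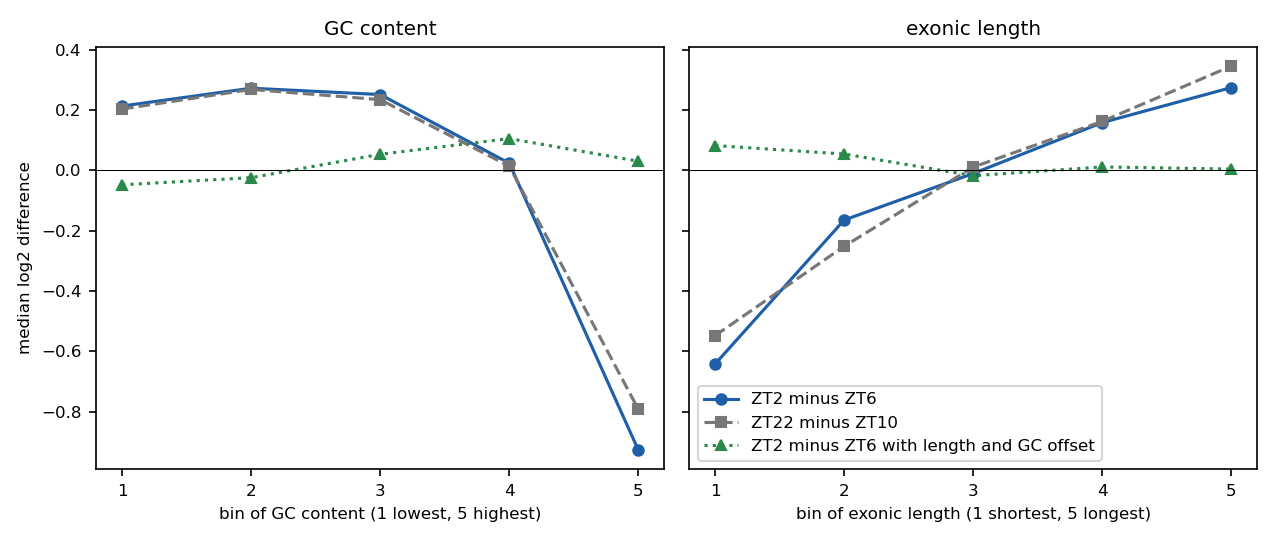
Median log2 difference (vertical axes) of genes in 5 bins of exonic GC content (left) and exonic length (right), for ZT2 minus ZT6 (circles), ZT22 minus ZT10 (squares) and ZT2 minus ZT6 after a length and GC offset (triangles). The lines without an offset fall together to -0.93 and -0.79 in the highest GC bin, and the offset line stays between -0.05 and 0.11.

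The deposited tables did not hold the same reads for ZT6 and ZT10. The normalized table gave back whole reads for 100% of its values in every library (tolerance 0.01). Recovered reads were set against counted reads gene by gene, and the median log2 ratio was 0 in the ZT2 libraries and between -0.12 and -0.11 in the ZT6 libraries. It was between -0.13 and -0.12 in the ZT10 libraries and 0 in those of ZT14, ZT18 and ZT22. The tables gave exactly the same number of reads for 36.8 to 47.1% of the genes they share in the ZT6 and ZT10 libraries, and for 94.7 to 96.3% in all others. Of 18899 tested genes in both tables, 13936 (73.7%) agreed within 1.5-fold in all 6 libraries. Among those, 5319 (38.2%) were called in the counts. The test on recovered reads called 7219 of 20822 genes. Of the genes called in the counts, 194 had the other sign in the recovered reads, and 76 were called in both with opposite signs. None of the 14 called clock loop genes changed sign between the tables. Of genes counted at ZT6, 87 were listed at 0 there in the normalized table, 53 of them pseudogenes, against 12 at ZT2.

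The neighbouring timepoints allowed a related comparison in other libraries. ZT22 precedes ZT2 and ZT10 follows ZT6. ZT22 lies in the dark phase and 12 hr from ZT10, while ZT2 and ZT6 both lie in the light and 4 hr apart. No library is shared between the comparisons. Between ZT22 and ZT10, 4995 genes (26.4%) were called. Of these, 4235 were also called between ZT2 and ZT6, which is 66.2% of the ZT2 and ZT6 calls and 84.8% of the ZT22 and ZT10 calls. Across 15759 genes with a mean of at least 10 reads the log2 differences correlated with Pearson's r = 0.72 and Spearman's rho = 0.78, across genes, which are not independent replicates. The sign was the same for 6228 (97.3%) of the 6402 genes. The medians of the absolute log2 difference were 0.89 for ZT2 minus ZT6 and 0.75 for ZT22 minus ZT10, but 0.23 for ZT2 minus ZT22 and 0.33 for ZT6 minus ZT10. For 4502 (70.3%) of the called genes the mean of ZT14 and ZT18 lay between the means of ZT2 and ZT6. The called genes were selected for a difference between ZT2 and ZT6, which favours such a place. No share over all tested genes is at hand to set beside it. Batch and time of day cannot be told apart here, since the neighbours lie in the same clusters. ZT6 and ZT10 are also the timepoints whose reads differed between the deposited tables, so any difference in their processing would enter both comparisons and cannot be told apart from time of day.

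**Figure D5:**
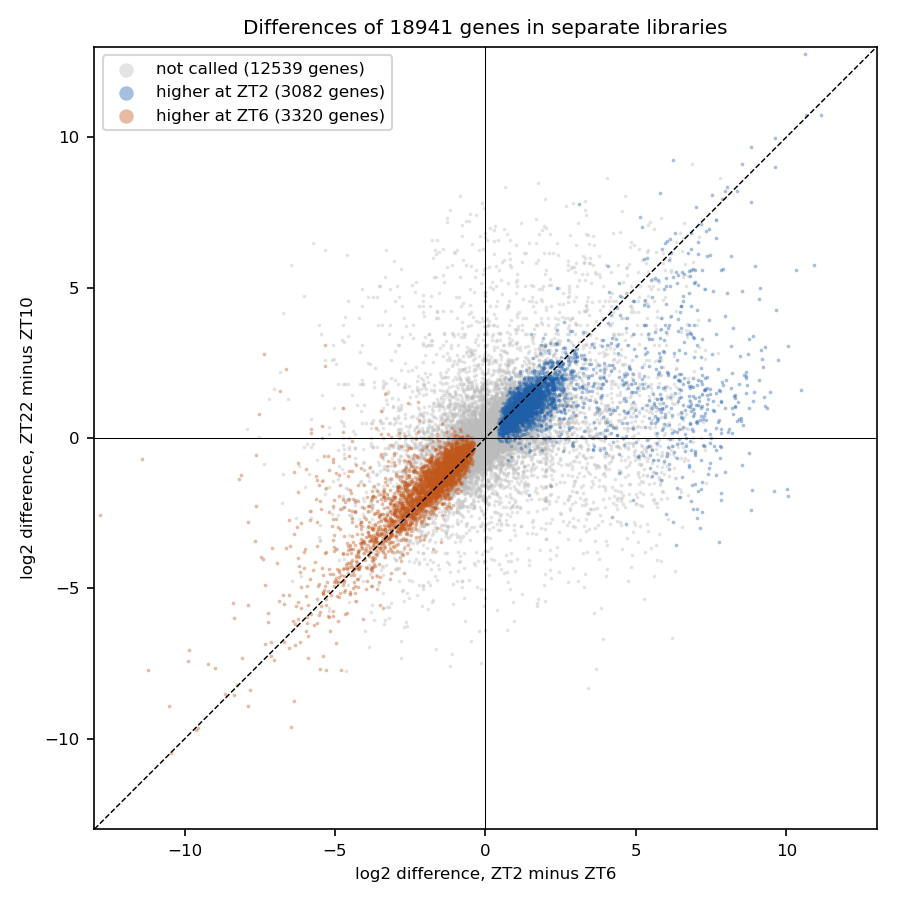
Log2 difference ZT2 minus ZT6 (horizontal axis) against ZT22 minus ZT10 (vertical axis) for 18941 tested genes, coloured by the ZT2 and ZT6 call, with a dashed line of equal differences. Called genes lie mostly in the lower left and upper right quadrants, and 6228 of 6402 have the same sign in both.

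A test of the difference between the comparisons, (ZT2 minus ZT6) minus (ZT22 minus ZT10), called 0 genes with edgeR at an adjusted p under 0.05, with 1133 genes (5.98%) at an unadjusted p under 0.05. DESeq2 called 46. The smallest adjusted p in edgeR was 0.0846. Genes with small p-values in it included *Dapp1*, which had 480 reads at ZT2 and 0 at ZT6. The log2 difference of *Per2* was -2.22 here and -3.29 between ZT22 and ZT10, and that of *Avp* was -5.23 and -5.90. That of *Prok2* was -0.89 and -3.26, and that of *Bhlhe41* was -0.76 and -1.23. Only 6 genes were called between ZT2 and ZT22 and 9 between ZT6 and ZT10 by edgeR, in comparisons that share the ZT2 or the ZT6 libraries with the one described here. *Sik1*, *Rgs16* and *Rasl11b* were called in both. Mean levels of *Sik1* ran from 9.89 CPM at ZT22 to 33.7 at ZT2, 77.9 at ZT6 and 21.8 at ZT10. *Rgs16*, a G-protein regulator of the SCN, ran from 80.1 to 197.9, 336.3 and 128.8 CPM, and *Rasl11b* from 42.8 to 142.5, 223.2 and 88.7 CPM. All 3 were thus higher at ZT2 than at ZT22 and higher at ZT6 than at ZT10, within the clusters of libraries, and higher at ZT6 than at ZT2 (log2 differences of -1.21, -0.76 and -0.65, all called). *Bhlhe41* and *Prok2* were called between ZT2 and ZT22, with means of 104.1 and 390.4 CPM and of 8.42 and 127.9 CPM at ZT22 and ZT2.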

How the data were processed

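RNA-seq was analysed from the SCN of 18 pools of mice, 3 at each of 6 timepoints. The authors aligned reads with GSNAP to mm10 (GRCm38) and, per the labels and methods, counted them per gene with HTSeq 0.5.4p1. The authors deposited whole-number read counts per gene, without normalization and with the lanes of a pool combined. They also deposited a normalized signal, whole reads divided by a size factor per column, and these reads differ from the count table at ZT6 and ZT10. The steps of that signal gave back whole reads for 100% of values, and 0 sample columns were left unused.

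Genes were kept where over 6 of the 18 libraries had a read and were tested with edgeR 4.0.16 (R 4.3.3) by its quasi-likelihood test with TMM normalization, on 6 timepoint means without covariates. Benjamini-Hochberg adjustment was over all 18941 genes at 0.05. SE is the log2 difference divided by the square root of F. Symbols, exonic length and GC content came from GENCODE M21 (length and GC for 98.8% of tested genes), and promoters from RefSeq. Scripts were tested on simulated data. Group comparisons are ZT2 against ZT6, ZT22 against ZT10, their difference, and neighbours within clusters. Depth is given with the results, and with 3 libraries a group the spread between pools limits precision.

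The genes and lists were chosen with earlier results of these data known. Besides all clock genes, the best known members of each list, and up to 3 called members per list and direction with the largest difference (no overlap, mean of at least 5 CPM), named genes are the 8 largest differences each way (at least 10 reads per library), the 5 smallest p each way above 100 CPM, the smallest p of departure, genes without a read at one timepoint, and runs of at least 4 neighbours. The genes within clusters were named after their values were seen. Some genes that the rule names are not reported here.

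There were 29 alternatives, 18 of which left out 1 library each. The others were DESeq2 1.42.0, limma-voom (limma 3.58.1), a fit to the 6 libraries alone, DESeq2 size factors, upper-quartile normalization, a filter of 10 reads in every library, no filter, the recovered reads, a replicate block, a length and GC offset, and removal of the runs. No set test was run.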

Additional observations from a re-analysis of the deposited data

Results flagged for a closer look

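Genes listed only in the normalized table were outside the comparisons above, and they also differed. From reads recovered from that table, 2171 such genes were tested and 604 (27.8%) were called by edgeR, 382 higher at ZT2 and 222 higher at ZT6. The most abundant were mitochondrial. Recovered reads of *mt-Nd1* were 84819, 86428 and 89403 at ZT2 and 189698, 175167 and 186622 at ZT6, a log2 difference of -1.31 ± 0.28 (SE). *Map2*, a neuronal microtubule protein gene, had 22913, 26427 and 28773 reads at ZT2 and 12938, 13763 and 13223 at ZT6, a log2 difference of 0.72 ± 0.16. *Ndufb2*, a complex I subunit gene, had 473, 609 and 839 reads at ZT2 and 13405, 12662 and 11658 at ZT6, a log2 difference of -4.57 ± 0.16. Among the 2171, 39 had no read at ZT6.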

How the results depend on the processing

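The number of genes called between ZT2 and ZT6 stayed within 1.5 times of 6402 under each of the 29 alternatives. It was 7195 with DESeq2, 4623 when only the 6 libraries were fitted and 5202 (without ZT2 library B) to 7136 (without ZT18 library C) when 1 library was left out. The number of genes departing from ZT22 minus ZT10 was 0 in edgeR, but 46 with DESeq2, 2 without a filter, and 0 to 3 when 1 library was left out, with 3 without ZT18 library C. ZT18 library C had 15412981 reads on genes, the fewest of the 18 libraries. It lay at 23.65 on the first principal component, against -0.49 and -2.41 for ZT18 A and B. The cause of these changes in number was not tested. With the length and GC offset, 4 of the named genes called turned direction: *Dbp* to 1.04, *Grin2c* to 0.20, *Jund* to 0.25 and *Sox10* to 0.25. Of these, only *Dbp* was called in the turned direction. Upper-quartile normalization called 3240 genes higher at ZT2 and 3171 higher at ZT6, and limma-voom 3446 and 3268, so the larger side turned. The recovered reads called 3836 and 3383 with a median log2 difference over all genes of 0.20, and limma-voom had a median of 0.19. A filter of 10 reads in every library left 7 activity-induced genes called higher at ZT6 in place of 11. Of 209 named genes called, 164 stayed called in all alternatives that gave a value, and of 55 named genes not called, 36 stayed so.

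The labels share the letters A, B and C between timepoints. Deviations of libraries with the same letter correlated between ZT2 and ZT6 with r = -0.05, 0.04 and -0.00 across 15759 genes, so the letters share only a name. With the replicate block 6117 genes were called, 2997 higher at ZT2 and 3120 higher at ZT6, and 5947 of them were among the 6402. Depth limits genes with few reads at one timepoint, and those with none there are given as bounds.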

Other observations

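A few genes went against the shared direction of the neighbouring comparisons. Of the genes called between ZT2 and ZT6, 174 had the other sign between ZT22 and ZT10, and 3 of these were called in both by edgeR, namely *Gm20554*, *Fndc9* and *Arid5a*. They were named after their values were seen. *Fndc9* had means of 71.9 CPM at ZT22, 195.6 at ZT2, 109.5 at ZT6 and 111.1 at ZT10. It was thus higher at ZT2 than at any neighbour, with log2 differences of 0.84 for ZT2 minus ZT6 and -0.63 for ZT22 minus ZT10. The test of the difference gave an adjusted p of 0.418. *Arid5a* had means of 2.21 CPM at ZT22, 4.92 at ZT2, 1.83 at ZT6 and 8.23 at ZT10.

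Low genes made up most of those called between ZT6 and ZT10. *Dapp1*, *AU021092*, *Htr1a*, *Tmco4* and *Smpdl3b* had means under 0.04 CPM at ZT6 and between 1.5 and 4.62 CPM at ZT10. *Fosl2*, an AP-1 gene, was at 23.9 CPM at ZT22, 70.3 at ZT2, 34.2 at ZT6 and 8.57 at ZT10. It was called higher at ZT2 than at ZT6 (log2 difference 1.04) and higher at ZT6 than at ZT10 (2.00).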
